A study of Mus musculus with 8 samples.

Results

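The Kupffer cell marker genes described here are 10 transcripts that mark the resident macrophages of the liver: Clec4f, Vsig4, Cd5l, Marco, Timd4, Adgre1, Cd163, C1qa, C1qb and C1qc. All 10 were measured, each by 1 probe set that the platform annotation pairs with that symbol alone, among 19540 genes on 8 Affymetrix arrays of mouse liver RNA. Of the 8 arrays 4 were labelled WT and 4 HNF6KO, a liver depleted of the homeodomain transcription factor HNF6 (gene Onecut1). Every mouse was a male of strain C57B/6, 12 weeks old, untreated, fed chow under a normal light cycle, and sampled at ZT10, which is 5 pm. The sources used here do not give the allele, how or in which cells HNF6 was removed, or whether Kupffer cells carry the deletion. Nor do they say that the arrays came from separate animals, so a p-value reflects the spread between arrays alone, which may be technical. The titles number the arrays 1 to 4 within each genotype, without saying what the number stands for.

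Kupffer cells line the sinusoids of the liver, where they take up bacteria, dying cells, and haemoglobin from the portal blood. They settle in the liver before birth and are kept by signals from endothelial, stellate and parenchymal neighbours, and their identity programme includes receptors seen in few other macrophages of the mouse. The C1q chains start the classical complement cascade, and macrophages are a main source of them, whereas most other complement proteins come from hepatocytes. Because RNA was taken from whole liver, fewer Kupffer cells and less marker RNA per cell cannot be told apart in these values.

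The markers varied together from array to array, and their level split between the arrays numbered 1 and 2 and those numbered 3 and 4. Within HNF6KO it did not follow the number itself. On the arrays numbered 3 and 4, 9 of the 10 markers passed as higher than on those numbered 1 and 2, by 1.76-fold (Timd4 and Clec4f) to 3.21-fold (Vsig4), where 5.47% of all genes passed as higher. Leaving out 1 array took that count to between 1 (without HNF6KO array 3) and 9. None of the 10 passed the test between HNF6KO and WT, which 0.399% of all genes passed. The values below are the deposited log2 expression values, on a scale where 1 unit is a doubling, given first as measured, in the order of arrays 1 to 4 of each genotype, and then as differences with their SE. A gene passed when its adjusted p, from limma across all 19540 genes with Benjamini-Hochberg adjustment, was under 0.05.

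Promoter sequence is shown for the pair of markers with the widest range over the arrays, Vsig4 and Cd163, and for C1qb and C1qc. These last are a pair of the C1q chains, and no window was matched for the remaining chain, C1qa. RefSeq promoter windows (build GRCm38.p6, 250 bases before to 50 after the start) matched 8 of the 10 markers by symbol. Capitals mark matches, on either strand, to 3 short motifs: GAGGAA, the core bound by the macrophage factor PU.1, TGCTGA, a half-site bound by MAF factors, and ATTGAT, a core bound by HNF6. The windows are those of Vsig4 (chrX:96293389-96293688, minus strand), Cd163 (chr6:124304401-124304700, plus strand), C1qb (chr4:136886151-136886450, minus strand) and C1qc (chr4:136892865-136893164, minus strand), written 5′ to 3′ along the gene.
Vsig4: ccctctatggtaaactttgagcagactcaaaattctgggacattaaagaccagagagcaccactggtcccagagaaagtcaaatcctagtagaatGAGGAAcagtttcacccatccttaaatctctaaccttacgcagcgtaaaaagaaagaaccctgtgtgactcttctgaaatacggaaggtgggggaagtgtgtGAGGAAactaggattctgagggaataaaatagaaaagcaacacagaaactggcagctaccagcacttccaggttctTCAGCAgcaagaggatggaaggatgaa
Cd163: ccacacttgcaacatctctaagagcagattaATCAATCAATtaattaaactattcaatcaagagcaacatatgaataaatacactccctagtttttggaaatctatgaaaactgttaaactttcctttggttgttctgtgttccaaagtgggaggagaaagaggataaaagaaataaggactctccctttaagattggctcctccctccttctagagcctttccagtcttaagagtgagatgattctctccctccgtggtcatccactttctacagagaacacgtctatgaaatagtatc
C1qb: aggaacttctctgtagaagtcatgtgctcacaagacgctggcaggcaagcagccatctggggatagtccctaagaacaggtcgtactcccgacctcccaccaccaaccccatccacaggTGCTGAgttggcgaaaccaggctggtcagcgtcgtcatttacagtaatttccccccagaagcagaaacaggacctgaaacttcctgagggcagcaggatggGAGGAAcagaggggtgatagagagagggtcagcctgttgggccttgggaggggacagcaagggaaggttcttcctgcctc
C1qc: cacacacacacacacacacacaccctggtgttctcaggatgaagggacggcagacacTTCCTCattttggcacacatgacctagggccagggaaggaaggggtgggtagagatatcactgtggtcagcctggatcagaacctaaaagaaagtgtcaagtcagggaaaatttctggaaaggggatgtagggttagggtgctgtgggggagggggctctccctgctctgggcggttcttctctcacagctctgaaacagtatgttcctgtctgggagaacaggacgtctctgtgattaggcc
The PU.1 core was found in 5 of the 8 windows (Marco, Cd5l, C1qb, C1qc and Vsig4), against 28.3% of all 32851 promoter windows. The MAF half-site was found in 5 of 8 (Cd5l, C1qb, Clec4f, Timd4 and Vsig4), against 19.5% of all. The HNF6 core was found in 1 of 8, Cd163, where 2 matches overlap, against 7.54% of all. A match describes the letters of the window and shows no binding.

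The targeted gene Onecut1 separated the genotypes, with WT arrays at 9.87 to 10.52 and HNF6KO arrays at 8.67 to 9.32. Its log2 difference was -1.32 ± 0.18 (SE, limma, adjusted p = 0.0273), or -0.83 over the arrays numbered 1 and 2 and -1.80 over those numbered 3 and 4. The difference between those values, -0.97 ± 0.17, did not pass (limma, adjusted p = 0.442). Among all genes tested, 78 genes, or 0.399% of those tested, passed between the genotypes, and 1383 genes, or 7.08%, passed between arrays 3 and 4 and arrays 1 and 2. The Onecut1 call was lost without WT array 1, 3 or 4, without HNF6KO array 3 or 4, and within arrays 1 and 2 alone. Alb (albumin), the defining hepatocyte transcript, read 13.96 to 14.11. All 10 Kupffer markers had means above that of the median gene, and 8 of them lay above the array's median gene (6.93 to 7.0) on all 8 arrays. The exceptions were Timd4, above it on 5 arrays, and Adgre1, on 7.

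**Figure D1:**
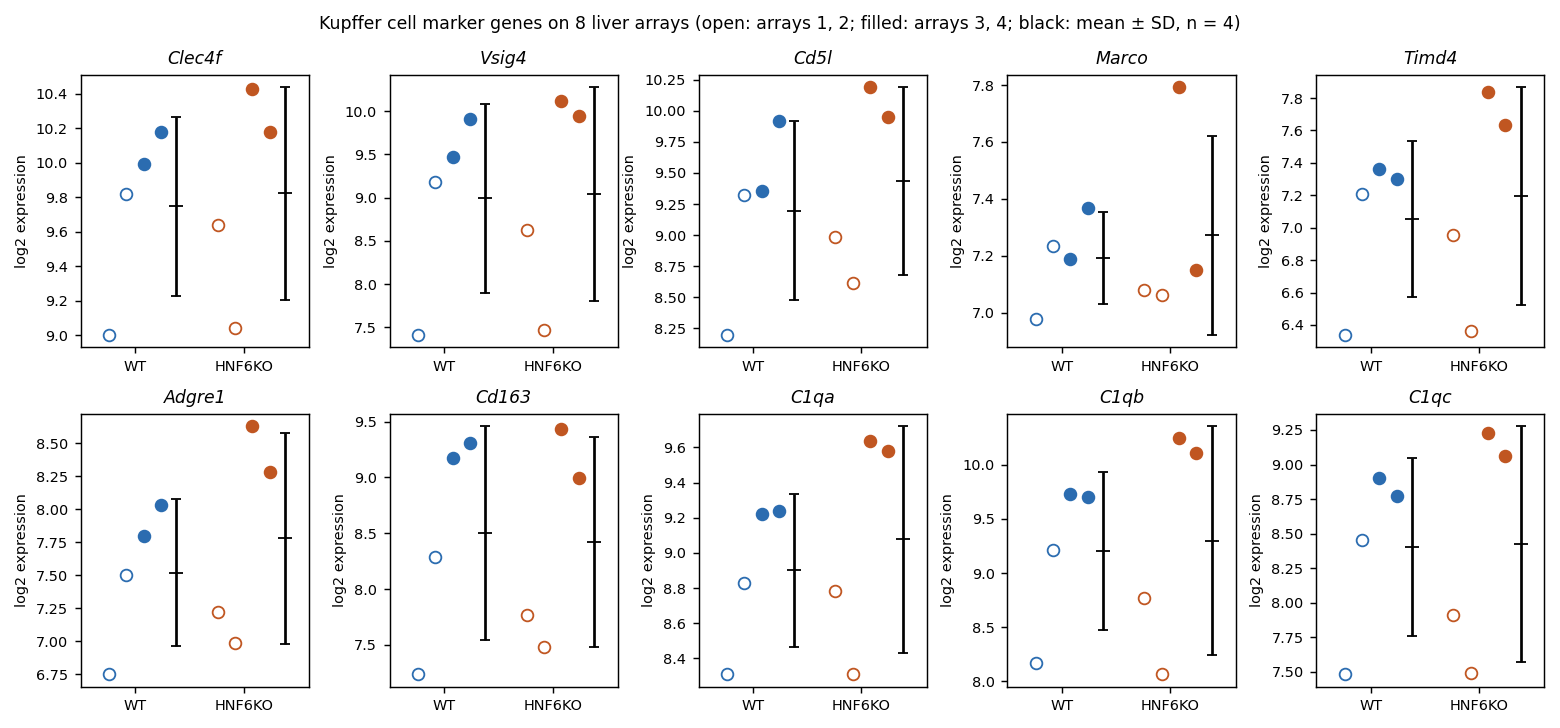
Log2 expression of the 10 Kupffer cell markers on each of 4 WT and 4 HNF6KO arrays, with open points for the arrays numbered 1 and 2, filled points for those numbered 3 and 4, and the mean ± SD (n = 4) in black; each panel has its own vertical scale. The genotypes overlap in every panel, and the filled points lie above all open points in every panel but that of Marco.

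Clec4f, a galactose-binding C-type lectin that in mice is restricted to Kupffer cells, was the member whose cell type is narrowest. It read 9.0, 9.82, 9.99 and 10.18 in WT and 9.64, 9.04, 10.43 and 10.18 in HNF6KO. All 4 arrays numbered 3 and 4 lay above all 4 numbered 1 and 2, while the genotypes overlapped over nearly their whole range. Clec4f was higher by 0.82 ± 0.19 on arrays 3 and 4 (adjusted p = 0.0378), and the difference between the genotypes was 0.07 ± 0.33 (adjusted p = 0.976). Adgre1, an adhesion receptor and the classic surface antigen of mouse macrophages, read 6.75, 7.50, 7.80 and 8.04 in WT and 7.22, 6.99, 8.63 and 8.28 in HNF6KO. It was higher by 1.07 ± 0.18 on arrays 3 and 4, or 2.10-fold (adjusted p = 0.0145), again without overlap. Between genotypes Adgre1 had the largest difference of the 10, 0.26 ± 0.40 with a 95% interval from -0.65 to 1.16 (adjusted p = 0.909).

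Vsig4, the receptor CRIg that binds complement C3 fragments and captures opsonised bacteria, had the widest range of the 10. Its WT values were 7.41, 9.18, 9.46 and 9.91, and its HNF6KO values 8.63, 7.47, 10.12 and 9.94, so the lowest and highest arrays were 2.71 apart, or 6.53-fold. WT array 1 and HNF6KO array 2 were the low ones, and the remaining arrays of numbers 1 and 2 lay between these and arrays 3 and 4. The split by array number was 1.68 ± 0.38, or 3.21-fold (adjusted p = 0.0348), and the genotype difference 0.05 ± 0.68 (adjusted p = 0.991), whose 95% interval of -1.48 to 1.58 reaches well past a doubling in both directions.

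Cd163, the scavenger receptor for haemoglobin bound to haptoglobin, separated the array numbers with the widest gap. It read 7.24, 8.29, 9.17 and 9.31 in WT and 7.77, 7.48, 9.43 and 8.99 in HNF6KO. The lowest of arrays 3 and 4 stood 0.70 above the highest of arrays 1 and 2. Cd163 rose by 1.53 ± 0.20 on arrays 3 and 4, or 2.89-fold (adjusted p = 0.00715), the smallest p among the markers. It was also the member with a lower mean in HNF6KO, at -0.08 ± 0.55 (adjusted p = 0.984).

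The other scavenger and phagocytic receptors differed in size of change. Cd5l, a secreted scavenger receptor protein also called AIM that is induced by LXR receptors, read 8.19, 9.32, 9.35 and 9.92 in WT and 8.99, 8.62, 10.19 and 9.95 in HNF6KO. Arrays 3 and 4 were higher by 1.07 ± 0.24 (adjusted p = 0.0332), but with a gap of only 0.03 between WT array 2 and WT array 3. Timd4, the phosphatidylserine receptor TIM-4 that binds dying cells and marks long-lived resident macrophages, read 6.34, 7.21, 7.36 and 7.30 in WT and 6.96, 6.36, 7.84 and 7.63 in HNF6KO. It was higher by 0.82 ± 0.21 on arrays 3 and 4, close to the threshold (adjusted p = 0.0491). Marco, a scavenger receptor for bacteria, moved least: 6.98, 7.23, 7.19 and 7.37 in WT and 7.08, 7.06, 7.79 and 7.15 in HNF6KO. Its arrays overlapped between the numbers, with HNF6KO array 4 below WT array 2, and the difference of 0.29 ± 0.13 did not pass (adjusted p = 0.221). Between genotypes the differences were 0.24 ± 0.43 for Cd5l, 0.14 ± 0.34 for Timd4 and 0.08 ± 0.16 for Marco, none of which passed.

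The 3 chains of C1q, the recognition part of the first complement component, changed together. C1qa read 8.31, 8.83, 9.22 and 9.24 in WT and 8.78, 8.31, 9.64 and 9.58 in HNF6KO. C1qb read 8.17, 9.21, 9.73 and 9.70 in WT and 8.77, 8.06, 10.25 and 10.11 in HNF6KO. C1qc read 7.48, 8.45, 8.91 and 8.77 in WT and 7.91, 7.49, 9.23 and 9.06 in HNF6KO. In each chain WT array 1 and HNF6KO array 2 were the lowest pair, HNF6KO array 3 was highest, and arrays 3 and 4 did not overlap with arrays 1 and 2. The chains rose on arrays 3 and 4 by 0.86 ± 0.14 (C1qa, adjusted p = 0.0132), 1.39 ± 0.25 (C1qb, adjusted p = 0.0169) and 1.16 ± 0.21 (C1qc, adjusted p = 0.0173). Their genotype differences were 0.18 ± 0.32, 0.09 ± 0.53 and 0.02 ± 0.44, with adjusted p from 0.931 to 0.996.

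Taking HNF6KO against WT for the whole set, 0 of 10 markers passed in limma, against 0.399% of all genes, and 0 of 10 had an unadjusted p under 0.05, which 1859 of all 19540 genes had. The 10 differences ran from -0.08 to 0.26 with a median of 0.09, beside a median of -0.01 over all genes, and 9 were above 0. In no marker did the 4 HNF6KO arrays lie to one side of the 4 WT arrays, a separation found upward in 2.45% and downward in 3.21% of all genes. The direction of these small differences turned with the arrays compared. Within arrays 1 and 2 the median difference was -0.09, with 1 of 10 above 0, and within arrays 3 and 4 it was 0.36, with 9 of 10 above 0. No marker passed in either (0.113% and 0.394% of genes did). Leaving out 1 array moved the median over the markers from -0.13 (without WT array 1) to 0.43 (without HNF6KO array 2), and with array quality weights it was 0.50. It was also below 0 without HNF6KO array 3 (-0.11) or 4 (-0.02).

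With the array split as a term the SE of the genotype difference shrank, for instance from 0.55 to 0.20 for Cd163 and from 0.40 to 0.18 for Adgre1. No marker passed in that fit either (smallest adjusted p = 0.592), while 1.25% of all genes did. The narrowest and widest 95% intervals of the difference were then -0.22 to 0.38 for Marco and -0.81 to 0.91 for Vsig4. For Adgre1 the interval was -0.15 to 0.67, for Cd163 it was -0.54 to 0.38, and for C1qc it was -0.46 to 0.50. All 10 intervals held 0, and that no marker passed does not show that the genotypes were alike.

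**Figure D2:**
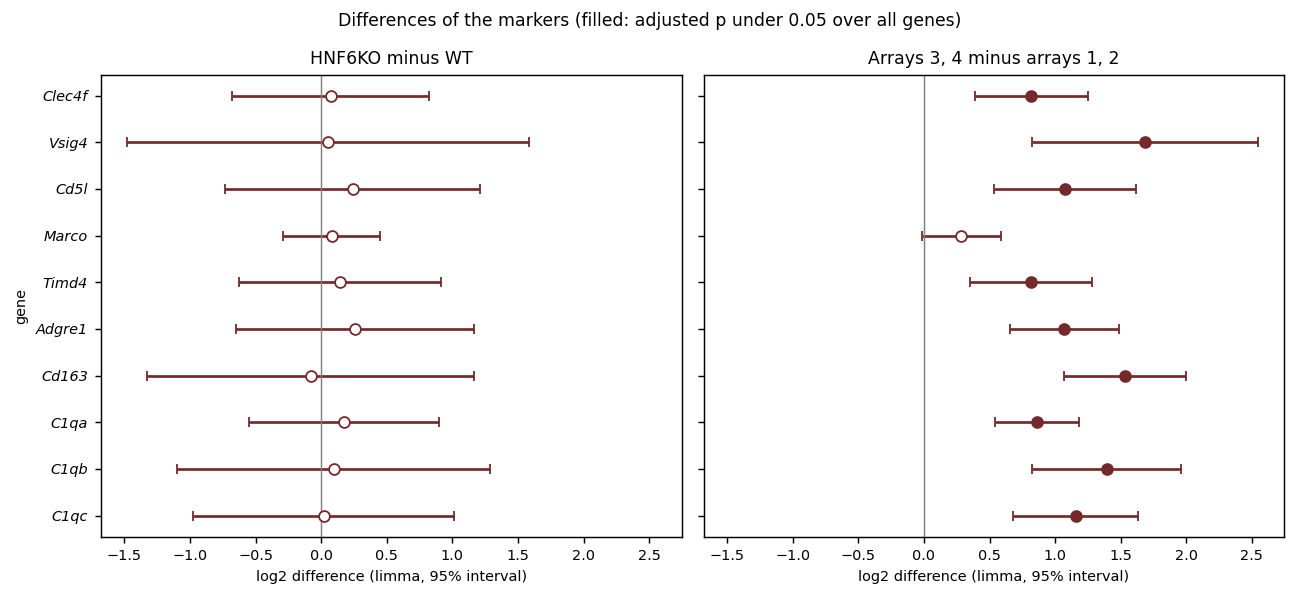
Log2 difference of each marker (vertical axis) with its 95% interval from limma, for HNF6KO minus WT on the left and for arrays 3 and 4 minus arrays 1 and 2 on the right, filled where the adjusted p over all genes is under 0.05. Every interval on the left crosses 0, and on the right that of Marco does.

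Taking the array numbers, 9 of 10 markers rose on arrays 3 and 4 and 0 fell, against 5.47% of all genes that rose and 1.61% that fell. The median difference was 1.07, beside -0.02 over all genes. The same 9 markers had no overlap between the sets of arrays, which 8.05% of all genes showed in this direction and 5.87% in the other. Genotype was kept as a term in this fit. Within WT alone the differences were above 0 in 10 of 10 markers, from 0.17 (Marco) to 1.48 (Cd163), and 0 of 10 passed with 2 arrays a side (0.563% of genes did). Within HNF6KO alone they were also above 0 in 10 of 10, from 0.40 (Marco) to 1.98 (Vsig4). There Adgre1, Cd163 and C1qc passed (0.512% of genes did), with adjusted p = 0.0452 for Adgre1 and C1qc and 0.0453 for Cd163. The difference between these splits was itself tested as an interaction. It was above 0 in 10 of 10 markers, at 0.11 (Cd163) to 0.73 (C1qb), and 0 of 10 passed (smallest adjusted p = 0.556), as did 0 of all genes in limma, where 2047 had an unadjusted p under 0.05 and no marker was among them. That all 10 interactions lie on one side is no more than 1 observation, since the markers share their arrays.

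The number of markers past the threshold depended on single arrays. It was 9 without WT array 2, where 5.48% of all genes passed in either direction, 3 without WT array 1 (2.52% of genes), and 1 without HNF6KO array 3 (1.54% of genes). It was 5 without WT array 3 (2.6% of genes), WT array 4 (8.26%), HNF6KO array 1 (3.84%), HNF6KO array 2 (5.78%) or HNF6KO array 4 (3.37%), so the share of all genes moved too, from 7.08% with all arrays. Cd163 passed in all 8 of these fits, and Adgre1 and C1qa in 7 of 8. C1qb passed in 6, C1qc in 5, Cd5l in 2, and Clec4f, Vsig4 and Timd4 in 1 each. The log2 difference kept its direction throughout, from 1.33 to 1.75 for Cd163 and from 0.13 to 0.39 for Marco. Since the split by number was chosen with earlier results of these arrays known, its p-values are no independent evidence that the number matters.

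Array by array, the markers formed a common profile. Centred on each marker's own mean, the average over the 10 was -0.94, -0.02, 0.29 and 0.45 in WT and -0.35, -0.83, 0.83 and 0.56 in HNF6KO, arrays 1 to 4 in turn. HNF6KO array 3 was the highest array for 10 of 10 markers, WT array 1 the lowest for 8, and HNF6KO array 2 the lowest for C1qa and C1qb. Within HNF6KO the average did not follow the number, with array 1 above array 2 and array 3 above array 4. WT array 2 was the highest of the 4 arrays numbered 1 and 2 for 10 of 10 markers. In 6 of them it lay nearer to the lowest of arrays 3 and 4 than to the next of its own set. The range over the 8 arrays ran from 0.82 (Marco) to 2.71 (Vsig4), against a median of 0.31 over all genes, and in 9 of 10 markers it exceeded the 95th percentile of all genes (0.89). Marco (0.45) and Vsig4 (0.42) lay farthest from the common profile by root mean square difference, and C1qc (0.11) and Adgre1 (0.12) lay closest. Vsig4 had a larger swing. Marco had a smaller swing and another order, with WT array 3 (7.19) and HNF6KO array 4 (7.15) below WT array 2 (7.23).

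**Figure D3:**
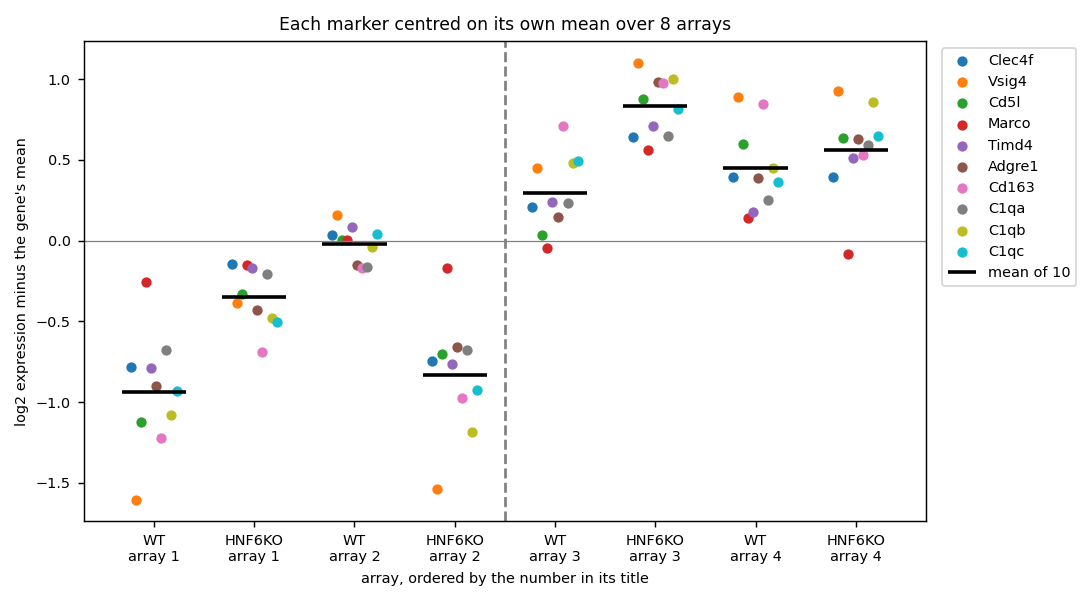
Log2 expression of each marker minus its own mean over the 8 arrays (vertical axis), 1 colour per gene, with the mean of the 10 as a black bar; arrays are placed by the number in their title, which is a name and not a series. The black bars lie below 0 on all 4 arrays left of the dashed line and above 0 on all 4 right of it, from -0.94 on WT array 1 to 0.83 on HNF6KO array 3.

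Symbols of the form used for gene models without a proper name were skipped in the search for similar profiles. Outside the set, the 6 remaining genes with the most similar profile were all known from leukocytes. By root mean square difference from the markers' mean profile over the 8 arrays they were Csf1r (0.10), the receptor for the macrophage growth factor CSF1, Igsf6 (0.10), Cybb (0.12), a subunit of the phagocyte oxidase, Laptm5 (0.12), Ctss (0.12), the lysosomal protease cathepsin S, and Cd53 (0.15), a leukocyte tetraspanin. The median gene stood at 0.63. Csf1r read 8.51, 9.18, 9.55 and 9.62 in WT and 8.93, 8.27, 10.11 and 9.73 in HNF6KO. All 4 of its arrays numbered 3 and 4 lay above the others, as in the markers. These 6 genes were picked for their likeness, so their own split differences, 0.93 to 1.19, describe them and test nothing.

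Other genes of resident Kupffer cells rose on arrays 3 and 4 in part. Of 13 measured, 8 rose, against 5.47% of all genes, 0 fell and 5 did not pass, with a median difference of 0.36. Siglec1, the sialic acid receptor CD169, rose by 0.72 ± 0.08 (adjusted p = 0.00470), Clec1b, the lectin CLEC-2, by 0.78 ± 0.12 (adjusted p = 0.00997) and Cfp, complement properdin, by 0.73 ± 0.13 (adjusted p = 0.0168). The transcription factor Spic, which is needed by iron-recycling macrophages, rose by 0.52 (adjusted p = 0.0376), and Nr1h3, which encodes LXRα, by 0.24 (adjusted p = 0.0252). Spic, with a mean of 5.90, was dimmer than the median gene. Id3, a factor that Kupffer cells need for their development, had a difference of -0.02 and the lectin Cd207 one of 0.02, and neither passed. Between genotypes 0 of the 13 passed in limma and 0, against 1859 of all 19540 genes, had an unadjusted p under 0.05 (median 0.02).

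Genes shared by macrophages and monocytes rose on arrays 3 and 4 in 11 of 19 cases and those of recruited monocytes in 1 of 11, and the difference between these lists was not tested. Of all genes 5.47% rose. Of the 19 general macrophage genes 11 rose on arrays 3 and 4, 0 fell and 8 did not pass (median 0.62). The Fc receptor Fcgr3 rose by 0.85 ± 0.11 (adjusted p = 0.00717), and Spi1, which encodes PU.1, rose by 0.81 (adjusted p = 0.0177). Between genotypes 0 of the 19 passed in limma, 2, against 1859 of all 19540 genes, had an unadjusted p under 0.05 and the median was 0.13. Of 11 monocyte and recruited macrophage genes 1 rose on arrays 3 and 4, the integrin Itgam at 0.28 ± 0.06 (adjusted p = 0.0252), and 10 did not pass (median -0.03), with 10 of the 11 dimmer than the median gene. Mean levels of that list were 5.95 to 5.97 on arrays 1 and 2 and 5.95 to 5.99 on arrays 3 and 4. The chemokine receptors Ccr2, with a mean of 4.79, and Cx3cr1, at 6.92, did not pass in either comparison.

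Sinusoidal endothelial genes shared the split between the array numbers with the Kupffer markers, but not the order of arrays within it. Their mean level on HNF6KO array 1 (8.81) lay above that on WT array 2 (8.54), and HNF6KO array 4 (9.33) was highest. Of 11 measured, 7 rose on arrays 3 and 4, against 5.47% of all genes, 0 fell and 4 did not pass, with a median difference of 0.74. The mean level of the list was 8.32 to 8.81 on arrays 1 and 2 and 8.95 to 9.33 on arrays 3 and 4, and none of the 11 was dimmer than the median gene. Pecam1, the endothelial adhesion molecule CD31, read 6.98, 7.26, 7.84 and 7.75 in WT and 7.36, 7.13, 8.16 and 8.12 in HNF6KO, a rise of 0.78 ± 0.08 on arrays 3 and 4 (adjusted p = 0.00441). Oit3 rose by 0.79 ± 0.13 (adjusted p = 0.0138) and the receptor Gpr182 by 0.70 ± 0.11 (adjusted p = 0.0101). Of 10 stellate cell genes 3 rose (Dcn, Colec11 and Rgs5), 0 fell and 7 did not pass (median 0.36, mean levels 8.18 to 8.48 and 8.50 to 8.70). The part of endothelial and stellate RNA in the difference of the Kupffer markers was not tested.

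**Figure D4:**
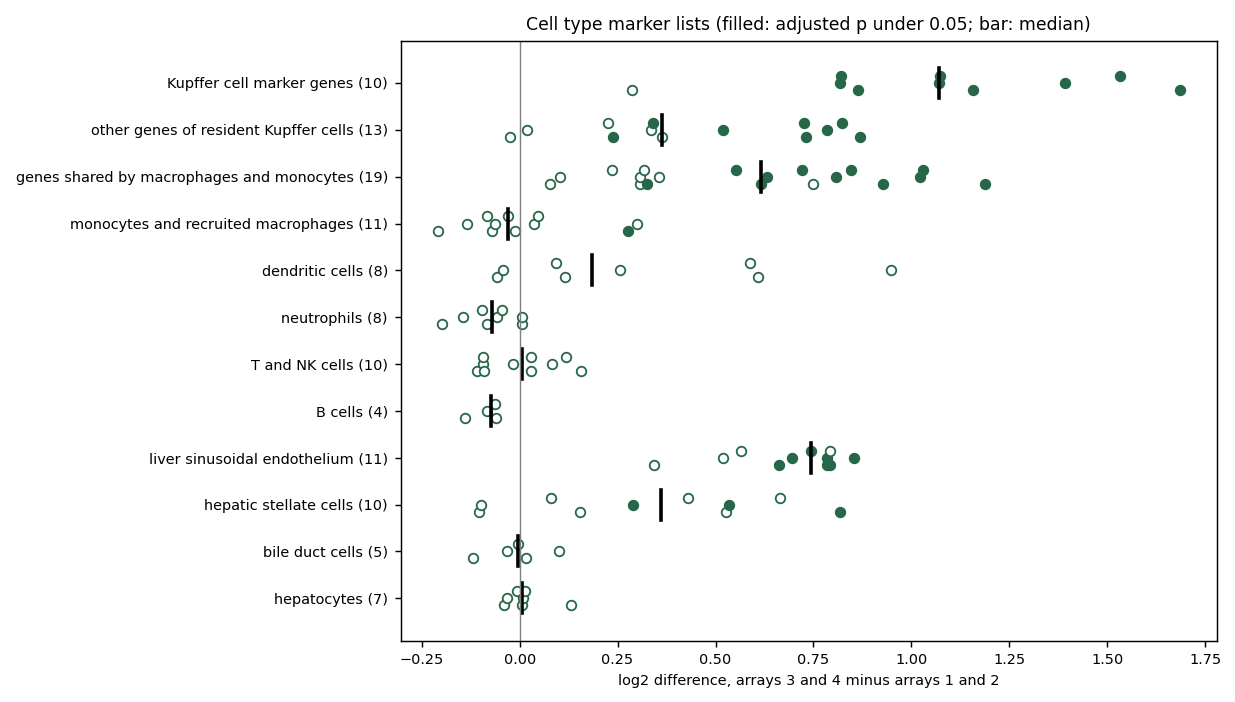
Log2 difference between arrays 3 and 4 and arrays 1 and 2 for each measured gene of 12 cell type lists (number of genes in brackets), filled where the adjusted p over all genes is under 0.05, with the median of each list as a black bar. Medians are 1.07 for the Kupffer cell markers, 0.74 for sinusoidal endothelium, 0.62 for general macrophage genes and within 0.10 of 0 for neutrophil, T and NK, B, recruited monocyte, bile duct and hepatocyte genes.

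Lists for the remaining cells of liver and blood had no gene past the threshold between the array numbers, which 7.08% of all genes passed. In limma 0 of 10 T and NK cell genes, 0 of 4 B cell genes, 0 of 8 neutrophil genes, 0 of 5 bile duct genes, 0 of 2 red cell genes and 0 of 7 hepatocyte genes passed. At an unadjusted p under 0.05 there were 0, 0, 0, 1, 0 and 1 of them, a level that 4864 of all 19540 genes reached. Mean levels on arrays 1 and 2 and on arrays 3 and 4 were 5.84 to 5.88 and 5.82 to 5.89 for T and NK cells, 5.68 to 5.76 and 5.62 to 5.67 for B cells, and 5.73 to 5.83 and 5.64 to 5.83 for neutrophils, where 9 of 10, 4 of 4 and 8 of 8 genes were dimmer than the median gene. For hepatocytes they were 13.68 to 13.75 and 13.69 to 13.77, high on the scale, where a change may be understated. Of 8 dendritic cell genes 0 passed, 2 had an unadjusted p under 0.05, about the share of all genes, and the median was 0.19. Cd74, the invariant chain that macrophages and B cells also express, had a difference of 0.95 ± 0.32 (adjusted p = 0.110). Between genotypes 0 genes of these 7 lists passed in limma, and 4, against 1859 of all 19540 genes, had an unadjusted p under 0.05. Among the 4 was Alas2, the red cell enzyme of heme synthesis (-0.98 ± 0.20, adjusted p = 0.0925).

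Partners and signals of the markers were measured as well, and most did not pass. Of all genes 5.47% rose on arrays 3 and 4 and 0.159% in HNF6KO. Of 10 classical complement genes that act with or after C1q, C3ar1, a receptor for the C3a fragment that macrophages carry, rose on arrays 3 and 4 by 0.65 ± 0.16 (adjusted p = 0.0499) and 9 did not pass, among them C1ra (0.30 ± 0.09, adjusted p = 0.0887), a protease that binds C1q. Between genotypes C2 rose by 0.38 ± 0.06 (adjusted p = 0.0404). Of 8 genes that clear haemoglobin and heme, the task Cd163 begins, 0 passed in limma in either comparison, and 1 and 0 had an unadjusted p under 0.05 between the array numbers and the genotypes. Of all 19540 genes 4864 and 1859 had such a p. Of 9 other receptors and bridging proteins for dying cells, a role shared with Timd4, 2 rose on arrays 3 and 4, the scavenger receptor Stab1 at 0.44 ± 0.05 (adjusted p = 0.00578) and the receptor kinase Axl at 0.76 ± 0.16 (adjusted p = 0.0267). Between genotypes Gas6, the ligand that bridges dying cells to Axl, was higher in HNF6KO, at 8.55, 8.30, 8.55 and 8.51 in WT against 8.84, 9.20, 9.02 and 8.97 in HNF6KO, without overlap. That rise of 0.53 ± 0.09 was near the threshold (adjusted p = 0.0489).

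Signals of the Kupffer cell niche passed between arrays 3 and 4 and arrays 1 and 2 in 3 of 10 genes. Of all genes 7.08% passed there, 5.47% upward. Between the genotypes 0 of 10 passed (limma, 2 at an unadjusted p under 0.05, which 1859 of all 19540 genes had). Vcam1, the endothelial adhesion molecule, rose on arrays 3 and 4 by 1.15 ± 0.17 (adjusted p = 0.00950), Gdf2, which encodes BMP9, by 0.45 ± 0.07 (adjusted p = 0.00950), and Tgfb1 by 0.36 ± 0.07 (adjusted p = 0.0223). The growth factor genes Csf1 and Il34 had differences of 0.09 and 0.20 and did not pass. Of 12 interferon response genes 2 rose on arrays 3 and 4, Oasl2 by 0.60 ± 0.10 (adjusted p = 0.0157) and Ifi27l2a by 0.56 ± 0.13 (adjusted p = 0.0378), and 10 did not pass (median 0.29). Between genotypes 0 of these 12 passed in limma and 3, against 1859 of all 19540 genes, had an unadjusted p under 0.05. The median was 0.44, beside 0.09 for the Kupffer markers, and 12 of 12 were above 0, as were 42.6% of all genes. These genes share their arrays, so that count is no more than 1 observation. On HNF6KO array 1 the mean of the list, 7.40, lay below that of every WT array. Mean levels of the interferon list were 7.43 to 7.65 in WT and 7.40 to 8.43 in HNF6KO, and 7.40 to 7.88 on arrays 1 and 2 against 7.54 to 8.43 on arrays 3 and 4. Its part in the difference of the markers was not tested.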

How the data were processed

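Liver RNA was labelled with biotin by a whole-transcript terminal labelling kit after Trizol extraction, per the labels' protocols. The authors deposited 1 log2 value per probe set and array; reading them as log2 rests on their range of 3.69 to 14.1, and the sources used here do not say how arrays were normalized or probes summarised. No value was changed. The annotation paired 21113 of 22725 probe sets with 1 symbol (43 with several, 1569 with none), and the brightest by mean stood for a gene. Symbols were checked through Entrez identifiers against RefSeq (0 updated).

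Tests used limma 3.58.1 in R 4.3.3 (lmFit, eBayes) on 19540 genes with Benjamini-Hochberg adjustment: genotype alone, array split plus genotype, and their interaction. The genotype fit alone was tested on simulated data with independent noise for each gene. Those data held no difference between array numbers, so they do not check the fit of the split. The members and 17 further lists (177 genes, 157 measured) were chosen with earlier results of these data known. Genes outside the members were named by the smallest p in their list (up to 3 per comparison) or by profile likeness (6 genes, unnamed gene models skipped). Some listed genes are expressed by more than 1 cell type (Mrc1, Cd74). Nr1h3, Id3, Spi1, Csf1 and Il34 were named after their values were seen. Same-numbered arrays were not paired by the data. Alternatives were other normalizations, filters, variance models, probe set rules, blocks and leaving out each array. The 8 arrays limit the precision.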

Additional observations from a re-analysis of the deposited data

Results flagged for a closer look

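In 22 groups of 4 arrays (10 markers and Onecut1 in each genotype), 2 held an array whose gap to the nearest other, divided by the range of its group, exceeded Dixon's 95% critical value, where chance gives about 1 in 20. Marco on HNF6KO array 3 stood at 7.79, above the other 3 HNF6KO arrays at 7.06 to 7.15 (ratio of gap to range 0.883). Timd4 on WT array 1 stood at 6.34, below the other 3 WT arrays at 7.21 to 7.36 (ratio 0.852). These are the arrays on which the markers as a set were highest and lowest.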

How the results depend on the processing

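Between genotypes, none of the 10 markers passed in any of the alternatives run (200 gene and setting combinations, smallest adjusted p = 0.102 within arrays 3 and 4), and the median of the members ranged from -0.13 to 0.43 when 1 array was left out. Between the array numbers all markers kept their direction, and 59 combinations lost a call. Markers past the threshold there numbered 7 after cyclic loess (6.65% of all genes), 6 after quantile normalization (6.76%), 5 with an intensity trend and robust variances (6.71%), 8 with no genotype term (4.13%), 3 within HNF6KO and 0 within WT (limma, 2 arrays a side), and 1 to 9 without 1 array. All genes past the threshold between genotypes numbered 202 with array quality weights, 162 at an adjusted p of 0.1, 245 with the split as a term, 22 within arrays 1 and 2, and 16 to 79 without 1 array. Between array numbers they numbered 2135 with array weights, 2665 at 0.1 and 2629 with the array number as a random block. In that block fit the correlation within a number was estimated at -0.202, and a negative value narrows the SE of the split. Genes past the threshold between array numbers were 807 with no genotype term, 110 within WT, 100 within HNF6KO, and 300 to 1614 without 1 array. Onecut1 kept its direction, at -1.45 to -1.23 without 1 array (adjusted p = 0.0235 to 0.0954), and did not pass within arrays 1 and 2 (-0.83, adjusted p = 0.171). The replicate number as a block gave 125 genes and 0 markers between genotypes. Deviations of same-numbered arrays correlated at 0.44, 0.17, 0.51 and 0.02, not every array best with its own number, so the numbers were not taken as pairs. The interaction median over the markers was 0.94 without WT array 1 and 0.08 without WT array 2. The causes were not tested. Dim genes lie near background, where differences are understated.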
